A study of Homo sapiens with 26 samples.

Results

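In OCI-Ly7, an established human lymphoma line of the germinal centre B cell type, the loss of an octamer-binding transcription factor was set directly against the loss of its coactivator. The comparison used 14 of the 26 samples of the series, namely 8 in which POU2F2 and 6 in which POU2AF1 was the target, chosen by their titles and with no control in the contrast. All cells, controls included, carried a catalytically dead Cas9 fused to the KRAB repressor domain and a blue fluorescent protein, delivered by lentivirus, and then received lentiviral guide RNAs against POU2F2, against POU2AF1 or without a target. The guides repress transcription at the promoter and leave the gene itself intact, so a remainder of each factor is expected. RNA was extracted with Trizol and read by stranded, paired-end mRNA sequencing.

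The layout of the samples sets what can be compared. POU2AF1 knockdown replicates 1 to 4 are labelled batch 1, and replicates 5 and 6 batch 2. All 8 POU2F2 knockdown replicates are labelled batch 2. Within batch 2 the labels carry a further mark, here called the series. Series s0 holds POU2F2 knockdown replicates 4, 5 and 6 and POU2AF1 knockdown replicate 5, and series s2 holds POU2F2 knockdown replicates 2 and 7 and POU2AF1 knockdown replicate 6. POU2F2 knockdown replicate 1 is alone in s1, replicate 8 is in s3 with a control, and replicate 3 has no mark. The labels give 48 h for POU2F2 knockdown replicate 3, POU2AF1 knockdown replicate 3 and 1 control file, and no time for the others. They do not say whether replicates came from separate cultures, so p-values measure the spread between these samples. The control guides gave 6 files, of which 3 hold reads of 1 library, and the resulting 4 libraries are used only to place both knockdowns.

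The 14 files held 26764630 to 45261223 estimated reads each. All 10 B cell markers examined were expressed in amounts that could be tested, with a summed level of 3860 to 4910 CPM (a level relative to all reads of a library) in POU2F2 knockdown, 3680 to 4070 CPM in POU2AF1 knockdown and 3730 to 4960 CPM in control libraries. Of 15 myeloid markers none reached 1 CPM in any of the 14 libraries, and MARCO was at 0 in all. Of 22 T and NK cell markers 15 stayed below 1 CPM. The sum of those 22 markers was 389 to 517 CPM in POU2F2 knockdown, 461 to 526 CPM in POU2AF1 knockdown and 381 to 460 CPM in control libraries, carried mainly by LCK, TRBC2, ZAP70 and TRAC. Their part in the results below was not tested, and in bulk RNA fewer cells of a type cannot be told apart from less RNA per cell. POU2AF1 knockdown replicate 1 stood apart by its share of mitochondrial reads, which was 25.8%, while POU2F2 knockdown libraries had 8.21% to 13.4% and the remaining POU2AF1 knockdown libraries 7.04% to 9.74%. POU2F2 knockdown replicate 3 went against its batch label: its log2 levels correlated with those of the batch 1 control at r = 0.993 across genes, against 0.937 to 0.976 for the other POU2F2 knockdown libraries.

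POU2F2 encodes OCT2, a POU domain protein of B cells that binds the octamer motif ATGCAAAT found in immunoglobulin promoters and enhancers. POU2AF1 encodes OCA-B (also called OBF1 or BOB.1), a coactivator that docks on the POU domain of OCT1 or OCT2 once they sit on an octamer. In mice, loss of OCA-B prevents germinal centres from forming. Because OCT1, encoded by POU2F1, can recruit OCA-B too, the sets of genes that respond to each loss need not be the same, and the contrast below asks where they differ.

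The octamer was searched on both strands, as ATGCAAAT and its reverse complement ATTTGCAT, in promoter windows that run from 250 bases before to 50 bases after a RefSeq start (GRCh38.p14). A gene can have several starts and so several windows, and positions below are counted from the transcript start of the window shown. In all windows shown this start lies inside the gene as annotated in GENCODE 29. The KCNN3 window lies furthest inside, since that gene begins at 154870280 on the minus strand. Whether the starts shown are used in OCI-Ly7 was not tested. Of the 37 genes called within series below, 23 matched this table with 32 windows, and 2 of those windows (6.25%) held the motif, against 623 of 35116 windows (1.77%) in the whole table. The windows with the motif belonged to KCNN3 and TP53INP2. Among the genes named by rule, VPREB3 also has it. The strand is that of the gene, the motif is in capitals, and the window of FCRL3, which was called both with batch as a term and within series, is shown because it has no match.
KCNN3, chr1:154859827-154860126, minus strand, motif starting 74 and 51 bases before the start of this window's transcript: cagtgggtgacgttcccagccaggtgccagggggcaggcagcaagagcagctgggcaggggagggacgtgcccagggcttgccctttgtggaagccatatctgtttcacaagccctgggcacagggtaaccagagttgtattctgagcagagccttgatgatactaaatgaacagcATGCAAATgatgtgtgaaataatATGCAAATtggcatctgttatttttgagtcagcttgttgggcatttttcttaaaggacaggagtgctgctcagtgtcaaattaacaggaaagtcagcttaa
TP53INP2, chr20:34704469-34704768, plus strand, motif on the opposite strand, starting 47 bases before the start of this window's transcript: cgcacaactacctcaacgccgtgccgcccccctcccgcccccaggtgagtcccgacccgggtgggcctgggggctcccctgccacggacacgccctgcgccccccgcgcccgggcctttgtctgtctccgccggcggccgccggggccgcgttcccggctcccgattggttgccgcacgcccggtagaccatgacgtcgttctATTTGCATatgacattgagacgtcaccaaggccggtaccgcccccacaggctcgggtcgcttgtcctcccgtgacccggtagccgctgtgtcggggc
VPREB3, chr22:23754376-23754675, minus strand, motif on the opposite strand, starting 47 bases before the start of this window's transcript: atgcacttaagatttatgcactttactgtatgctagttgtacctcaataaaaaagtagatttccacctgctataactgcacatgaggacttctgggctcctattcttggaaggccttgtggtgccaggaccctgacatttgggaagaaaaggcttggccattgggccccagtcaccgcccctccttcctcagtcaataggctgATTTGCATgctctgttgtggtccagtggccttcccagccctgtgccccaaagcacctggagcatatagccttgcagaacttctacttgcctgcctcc
FCRL3, chr1:157700720-157701019, minus strand, no match: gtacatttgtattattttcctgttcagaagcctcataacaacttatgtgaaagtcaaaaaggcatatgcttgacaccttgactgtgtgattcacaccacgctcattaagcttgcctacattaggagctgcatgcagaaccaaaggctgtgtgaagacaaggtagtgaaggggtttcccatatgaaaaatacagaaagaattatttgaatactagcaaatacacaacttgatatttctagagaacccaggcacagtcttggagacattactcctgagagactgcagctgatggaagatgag
A match describes these letters in these windows, and a window without one says nothing of sites elsewhere.

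In each knockdown its own target was below the level of every control library. POU2AF1 (ENSG00000110777) spans 111352252 to 111455630 of chromosome 11 (GRCh38, minus strand). It was at 389 to 534 CPM in the 8 POU2F2 knockdown libraries, with a median of 457 CPM. POU2AF1 knockdown gave 89.6 and 82.8 CPM in batch 2 and 28.4, 43.8, 32.4 and 30.7 CPM in batch 1, and control libraries had 458, 449, 452 and 468 CPM. The knockdown groups did not overlap, and repression of POU2AF1 was deeper in batch 1 than in batch 2. The fitted log2 difference, POU2F2 minus POU2AF1 knockdown, was 2.41 ± 0.194 (standard error, edgeR quasi-likelihood test with batch as a term, adjusted p = 5.6e-05).

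POU2F2 (ENSG00000028277) spans 42086110 to 42196585 of chromosome 19 (GRCh38, minus strand). Its level was 56.5, 90.0, 152, 55.7, 62.8, 75.3, 88.6 and 66.7 CPM in POU2F2 knockdown replicates 1 to 8. The POU2AF1 knockdown libraries had 191, 390, 380 and 381 CPM in batch 1 and 219 and 220 CPM in batch 2. The batch 1 control stood at 419 CPM and those of batch 2 at 235, 251 and 206 CPM. All POU2F2 knockdown libraries lay below all POU2AF1 knockdown libraries, and POU2F2 knockdown replicate 3 was the highest of its group. The log2 difference was -1.44 ± 0.308 with batch as a term, which missed the threshold (edgeR adjusted p = 0.35). It passed without replicate 3, at -1.63 (edgeR adjusted p = 0.025), and within series, at -1.55 ± 0.225 (edgeR adjusted p = 0.014). Within batch 2 alone, 8 libraries against 2, an exact two-sided permutation test gave p = 0.0444 for POU2F2 and for POU2AF1, the smallest value that such a layout allows. POU2F1, the gene of OCT1, averaged 113 ± 17.9 CPM in POU2F2 knockdown and 116 ± 18.2 CPM in POU2AF1 knockdown (SD, n = 8 and 6), with a log2 difference of 0.13 that was not called and changed sign under some alternatives, with a 95% interval of -0.25 to 0.51.

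**Figure D1:**
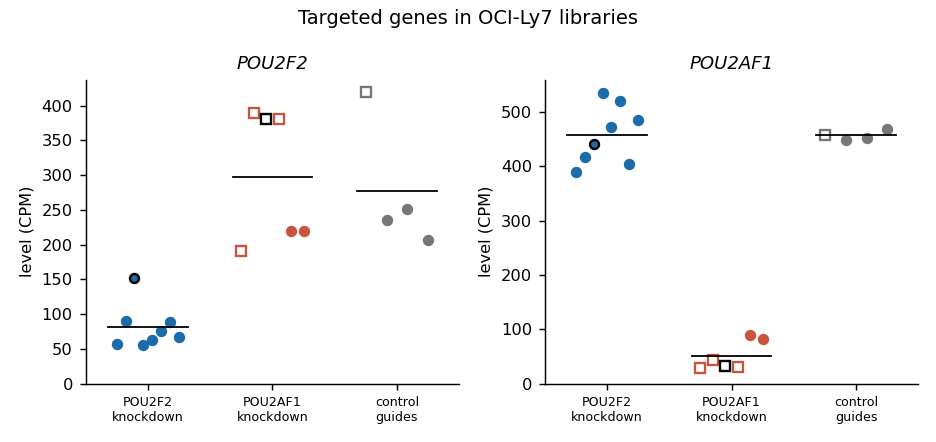
Level of POU2F2 (left) and POU2AF1 (right) in CPM by group. Points are libraries, filled circles batch 2, open squares batch 1, a black outline marks 48 h and the line is the group mean. POU2AF1 knockdown libraries lie between 28.4 and 89.6 CPM for POU2AF1 and POU2F2 knockdown libraries between 55.7 and 152 CPM for POU2F2, and among POU2AF1 knockdown and control libraries POU2F2 is higher in batch 1 than in batch 2 except in POU2AF1 knockdown replicate 1 (191 CPM).

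With batch as a term few genes separated the knockdowns. Of 15093 genes tested 3 were called at an adjusted p below 0.05 (0.0199%), all higher in POU2F2 knockdown: POU2AF1 itself, ZBTB3 and FCRL3. In all, 324 genes had an unadjusted p below 0.05. Because all POU2F2 knockdown libraries are labelled batch 2, the fitted difference rests on 8 libraries against POU2AF1 knockdown replicates 5 and 6, and the batch 1 libraries add only to the estimate of the spread. Without POU2AF1 knockdown replicate 5 only 1 gene was called, and without replicate 1 there were 7. DESeq2 called 44 genes, 36 higher and 8 lower.

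FCRL3 (ENSG00000160856, chromosome 1, 157674321 to 157700857, minus strand), an Fc receptor-like surface protein of B cells, was, with POU2AF1 and ZBTB3, called with batch as a term. It was at 5.75 to 7.80 CPM in POU2F2 knockdown, with a median of 6.65 CPM. Values in POU2AF1 knockdown were 2.53 and 2.60 CPM in batch 2 and 1.74 to 2.11 CPM in batch 1, and control libraries had 4.52 to 6.99 CPM. The knockdowns did not overlap, and the POU2F2 knockdown libraries overlapped the controls. The log2 difference was 1.38 ± 0.194 (edgeR adjusted p = 0.021), and 1.46 ± 0.162 within series (edgeR adjusted p = 0.0063). The call with batch as a term was narrow. Leaving out POU2AF1 knockdown replicate 5 gave an edgeR adjusted p of 0.91 and leaving out replicate 6 gave 0.31, at log2 differences of 1.36 and 1.40. The call was also lost without POU2AF1 knockdown replicate 3 or 4, or without any 1 of POU2F2 knockdown replicates 2, 4, 5, 6 and 7.

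ZBTB3, which encodes a zinc finger protein, had a log2 difference of 5.10 ± 0.508 (edgeR adjusted p = 0.00048), but its read estimate was unstable. It was at 3.88 to 8.41 CPM in POU2F2 knockdown. POU2AF1 knockdown libraries stood at 0.139 and 0.195 CPM in batch 2 and at 2.87 to 5.47 CPM in batch 1. The low values were thus in batch 2, and control replicate 9 was at 0.357 CPM. Of the repeated control files, which hold reads of 1 library, 1 gave 122 estimated reads for ZBTB3, another 5, and the file that is their sum gave 8. For FCRL3 the same files gave 143, 156 and 299 reads. In the 48 h libraries the log2 difference of ZBTB3 was -0.07, and with POU2F2 knockdown replicate 3 moved to the block of batch 1 its adjusted p within series was 0.12.

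Comparing libraries within a series brought out more genes. In this fit the series marks take the place of batch, so the difference rests on s0, with 3 POU2F2 knockdown libraries against 1 POU2AF1 knockdown library, and on s2, with 2 against 1. The biological coefficient of variation was 0.154, against 0.292 with batch as a term. Libraries that share a series were close to each other. Their spread over sampling noise was 2.53 to 4.62 among POU2F2 knockdown replicates 4, 5 and 6, and 6.09 between replicates 2 and 7. Between these 2 sets it was 30.8 to 47.8. In batch 1 it was 3.83 to 10.8 among POU2AF1 knockdown replicates 2, 3 and 4, and 54.5 to 66.5 between these and replicate 1. The spread in this fit comes in part from close libraries, so its standard errors may be too small for separate cultures. Of 15093 genes, 37 were called (0.245%), 28 higher (0.186%) and 9 lower (0.0596%) in POU2F2 knockdown. This count depended on single libraries. It was 3 without POU2AF1 knockdown replicate 5, 8 without replicate 6, and 491 (3.22% of 15240 genes, with 239 or 1.57% higher and 252 or 1.65% lower) without replicate 1, the library rich in mitochondrial reads, where the coefficient of variation was 0.0892. It was 23, 24 and 24 without POU2F2 knockdown replicates 2, 4 and 6. All 37 genes were also called without POU2AF1 knockdown replicate 1, and 35 of them with POU2F2 knockdown replicate 3 moved to the block of batch 1. In the within-series fit the block of batch 1 holds only POU2AF1 knockdown libraries. Leaving out replicate 1 therefore lowers the estimate of the spread and hardly moves the differences. Calls made without replicate 1, here and below, are not independent support. The spread is then taken mostly from close libraries, so their adjusted p-values may be too small. The paragraphs below describe genes among these 37 and those that the rule for named genes picked, by p with batch as a term. Besides those the rule named, genes called within series and list members were chosen for mention after their values were seen.

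The 48 h libraries give a look at the same genes outside the fitted difference. POU2F2 knockdown replicate 3 was set against POU2AF1 knockdown replicate 3, 1 library each and labelled with different batches. Leaving out both targets, 33 of 35 called genes differed in the same direction there (94.3%), against 57.9% of all genes tested. The exceptions were ZBTB3 and BMP7, a bone morphogenetic protein, which was at 44.6 CPM in POU2F2 knockdown replicate 3 and 40.4 CPM in POU2AF1 knockdown replicate 3. Over all 14 libraries the groups did not overlap for 20 of the 35 genes (0.894% of all genes tested), a description only, since the genes were called on libraries among these 14.

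**Figure D2:**
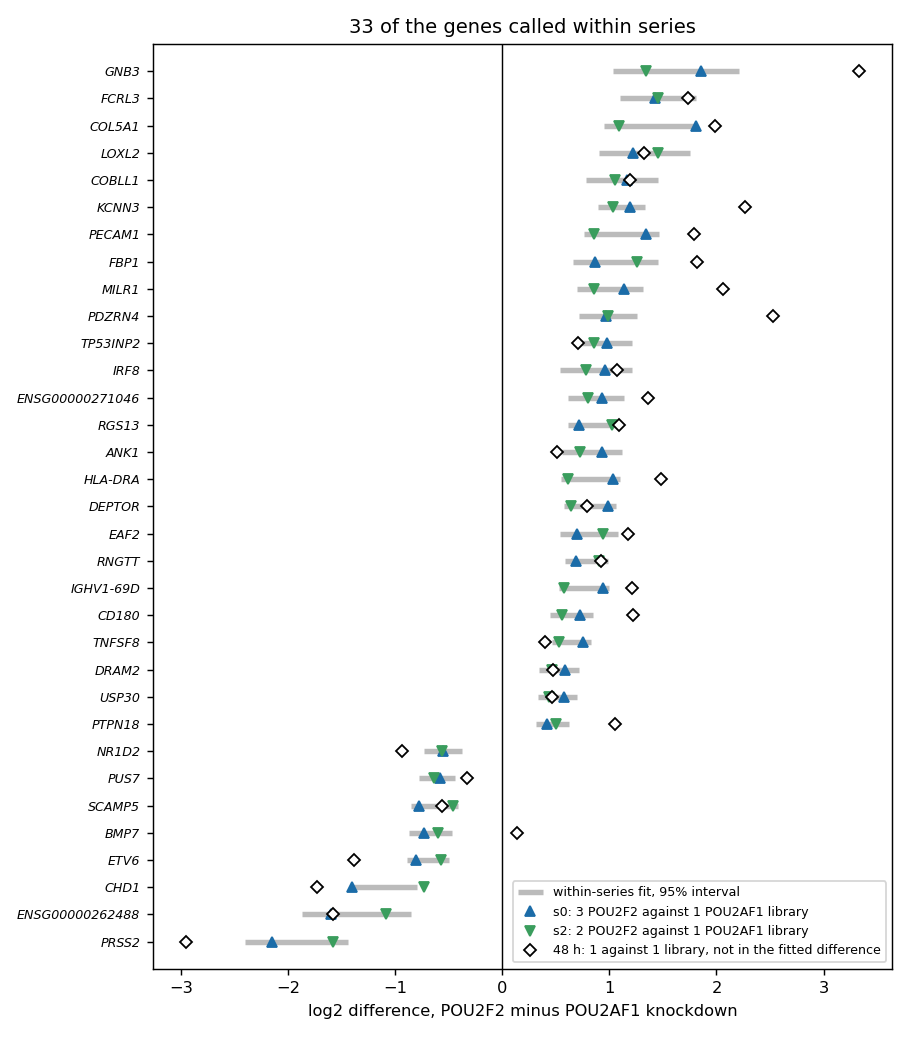
Log2 difference, POU2F2 minus POU2AF1 knockdown, for 33 of the genes called within series, the targets and ZBTB3 not among them. Grey bars are the 95% interval of the fit, triangles the differences in series s0 (up) and s2 (down), and open diamonds the 48 h libraries. Diamonds lie on the side of the fit for all genes shown but BMP7, and lie beyond the interval for several genes, among them GNB3 (3.33) and PDZRN4 (2.53).

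Genes of the germinal centre gave 4 of the calls. This list, like the other gene lists below, was chosen with earlier results of these data known. Its counts beside the shares of all genes are therefore descriptions, not independent support. Of 28 tested members of a list of the germinal centre B cell programme, 4 were higher in POU2F2 knockdown within series and none lower. Over all genes the shares were 0.186% and 0.0596%. Without POU2AF1 knockdown replicate 1 the counts were 12 and 1, where 1.57% of all genes were higher and 1.65% lower. With batch as a term none was called, and the median log2 difference over the 28 was 0.37, against 0.01 over all genes, with 26 of 28 values above 0. All 8 POU2F2 knockdown libraries lay above both batch 2 POU2AF1 knockdown libraries for 7 of the 28 (1.29% of all genes), and below both for none (1.34% of all genes). IRF8, RGS13 and PTPN18 are described here.

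IRF8 (ENSG00000140968, chromosome 16, 85898803 to 85922609, plus strand), an interferon regulatory factor active in germinal centre B cells, was at 132 to 174 CPM in POU2F2 knockdown, with a median of 152 CPM. In POU2AF1 knockdown it was at 83.2 and 85.4 CPM in batch 2 and at 53.6 to 82.6 CPM in batch 1, and the controls were at 150 to 210 CPM. The knockdowns did not overlap. The log2 difference within series was 0.88 ± 0.151 (edgeR adjusted p = 0.046), and with batch as a term 0.86 (edgeR adjusted p = 0.20).

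RGS13, which damps G protein signalling downstream of chemokine receptors in germinal centre B cells, was at 87.7 to 124 CPM in POU2F2 knockdown, with a median of 108 CPM. POU2AF1 knockdown gave 61.2 and 58.0 CPM in batch 2 and 39.9 to 47.3 CPM in batch 1. Again the groups did not overlap, with a log2 difference of 0.86 ± 0.117 within series (edgeR adjusted p = 0.012).

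PTPN18, a tyrosine phosphatase, was at 232 to 354 CPM in POU2F2 knockdown, against 193 and 198 CPM in batch 2 and 112 to 123 CPM in batch 1 of POU2AF1 knockdown. Its log2 difference within series was 0.46 (edgeR adjusted p = 0.020).

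BCL6, the repressor that holds B cells in the germinal centre state, did not pass within series. It was at 172 to 279 CPM in POU2F2 knockdown, with a median of 227 CPM. The POU2AF1 knockdown libraries had 138 and 137 CPM in batch 2 and 62.4, 116, 128 and 124 CPM in batch 1, and the controls were at 303 to 406 CPM. All POU2F2 knockdown libraries lay above all POU2AF1 knockdown libraries and below all controls. The log2 difference was 0.82 within series (edgeR adjusted p = 0.24), with a 95% interval of 0.33 to 1.32. Without POU2AF1 knockdown replicate 1, whose 62.4 CPM is the lowest value, it was again 0.82, with an edgeR adjusted p of 6.8e-05. MYBL1, a MYB family factor (0.48, adjusted p = 0.056), and NUGGC, a GTPase found in the nucleus (0.57, adjusted p = 0.066), also missed the edgeR threshold within series. Without POU2AF1 knockdown replicate 1 both were called, at adjusted p = 0.0049 and 0.00033.

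MHC class II genes encode proteins that present peptides to T cells. Of 13 tested members 1 was higher within series and none lower, against 0.186% and 0.0596% of all genes. Without POU2AF1 knockdown replicate 1 the numbers were 5 and 0, against 1.57% and 1.65% of all genes. The median was 0.32 with batch as a term, with 12 of 13 values above 0, against 7745 of 15093 over all genes. HLA-DRA, the alpha chain of HLA-DR, was at 526 to 908 CPM in POU2F2 knockdown, with a median of 823 CPM. Values in POU2AF1 knockdown were 410 and 518 CPM in batch 2 and 223 to 291 CPM in batch 1, and control libraries had 430 to 720 CPM. The knockdowns did not overlap, though the lowest POU2F2 and the highest POU2AF1 knockdown library were only a few CPM apart. The log2 difference within series was 0.83 ± 0.126 (edgeR adjusted p = 0.020). HLA-DQA1 (0.95), HLA-DOB (0.43), HLA-DRB1 (0.38) and HLA-DPB1 (0.33) had positive log2 differences within series that were not called, and passed without POU2AF1 knockdown replicate 1. HLA-DR and HLA-DP chains have close paralogues, so reads may be split between them. The invariant chain CD74 averaged 2210 ± 295 CPM in POU2F2 knockdown and 1590 ± 222 CPM in POU2AF1 knockdown (SD, n = 8 and 6) and was not called.

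Immunoglobulin genes, whose promoters carry octamers, were spread on both sides of 0. None of 11 tested chain genes was called with batch as a term or within series. Without POU2AF1 knockdown replicate 1 the within-series fit called 3 higher and 1 lower, against 1.57% and 1.65% of all genes. IGHM, the heavy chain of IgM, was at 4310 to 6450 CPM in POU2F2 knockdown, with a median of 5440 CPM. POU2AF1 knockdown libraries stood at 2900 and 3470 CPM in batch 2 and at 2360 to 3120 CPM in batch 1, with controls at 4530 to 6260 CPM. The groups did not overlap, and the log2 difference of 0.70 ± 0.151 within series missed the threshold (edgeR adjusted p = 0.11, and 0.0039 without POU2AF1 knockdown replicate 1). IGKC, the kappa light chain, averaged 3710 ± 844 CPM in POU2F2 knockdown and 1860 ± 433 CPM in POU2AF1 knockdown (SD, n = 8 and 6), again without overlap and without a call (within series 0.77, edgeR adjusted p = 0.16).

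The variable segment IGHV1-69D was called within series, with a log2 difference of 0.76 ± 0.108 (edgeR adjusted p = 0.013). It was at 901 to 1570 CPM in POU2F2 knockdown and, in POU2AF1 knockdown, at 750 and 930 CPM in batch 2 and 328 to 398 CPM in batch 1. A near-identical copy of this segment exists, so the assignment of its reads is uncertain. VPREB3, which takes part in the assembly of the B cell receptor and whose promoter window holds an octamer, was at 136 to 193 CPM in POU2F2 knockdown, with a median of 167 CPM. In POU2AF1 knockdown it was at 64.0 and 114 CPM in batch 2 and at 48.2 to 51.3 CPM in batch 1. Although the groups did not overlap, it was not called within series (0.98, edgeR adjusted p = 0.086), and the difference was 1.51 in s0 and 0.45 in s2.

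**Figure D3:**
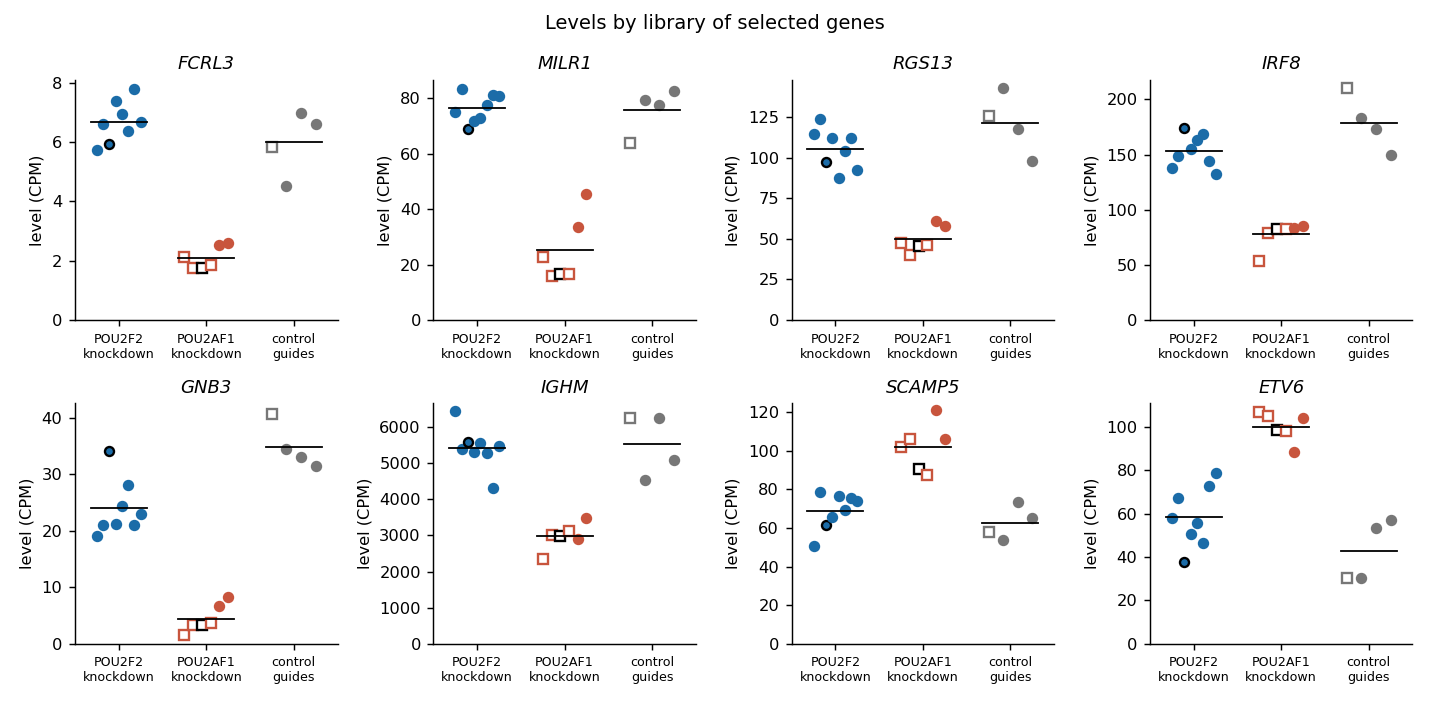
Level in CPM of 8 genes by group, with symbols as for the targeted genes. FCRL3, MILR1, RGS13, IRF8, GNB3 and IGHM are lower in POU2AF1 knockdown than in every POU2F2 knockdown library, and SCAMP5 and ETV6 are higher. POU2F2 knockdown points overlap control points in every panel, in that of GNB3 through POU2F2 knockdown replicate 3 alone (34.1 CPM).

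MILR1, an inhibitory receptor of the immunoglobulin superfamily first described in mast cells, was at 68.8 to 83.3 CPM in POU2F2 knockdown, with a median of 76.2 CPM. POU2AF1 knockdown gave 33.5 and 45.3 CPM in batch 2 and 16 to 22.9 CPM in batch 1, and control libraries had 64.0 to 82.5 CPM. POU2F2 knockdown libraries overlapped the controls, while every POU2AF1 knockdown library was lower. The log2 difference was 1.01 ± 0.139 within series (edgeR adjusted p = 0.012). PECAM1, an adhesion receptor, lies near it on chromosome 17, at 64319415 to 64413776, where MILR1 spans 64449037 to 64468643. PECAM1 was at 52.0 to 103 CPM in POU2F2 knockdown, against 38.4 and 39.1 CPM in batch 2 and 15.2 to 22.5 CPM in batch 1 of POU2AF1 knockdown (log2 difference within series 1.11, edgeR adjusted p = 0.013).

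CD180, a Toll-like receptor homologue of B cells, was at 36.1 to 60.7 CPM in POU2F2 knockdown, against 34.7 and 34.0 CPM in batch 2 and 14.8 to 17.8 CPM in batch 1 of POU2AF1 knockdown. Its log2 difference within series was 0.65 (edgeR adjusted p = 0.012). TNFSF8, the ligand of CD30, had a log2 difference of 0.65 as well (edgeR adjusted p = 0.012), but the groups overlapped over all libraries, since POU2F2 knockdown replicate 3 was at 22 CPM and POU2AF1 knockdown replicate 6 at 25.2 CPM. CXCR5, the receptor that guides B cells into follicles, was at 16.3 to 31.7 CPM in POU2F2 knockdown and at 6.65 to 12.8 CPM in POU2AF1 knockdown and was not called within series (1.01, edgeR adjusted p = 0.15). IL4R, the interleukin 4 receptor chain, was at 58.0 to 101 CPM in POU2F2 knockdown and at 20.3 to 42.6 CPM in POU2AF1 knockdown, and was not called either (0.75, edgeR adjusted p = 0.073).

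The remaining genes higher in POU2F2 knockdown within series are in none of the B cell lists. GNB3, LOXL2, KCNN3, PDZRN4 and FBP1 are in a list that an earlier analysis chose on these libraries as lower after POU2AF1 knockdown, so their direction is not independent evidence. GNB3, a G protein beta subunit, was at 19.0 to 34.1 CPM in POU2F2 knockdown, with a median of 22 CPM. The POU2AF1 knockdown libraries had 6.70 and 8.23 CPM in batch 2 and 1.52 to 3.62 CPM in batch 1, and control libraries had 31.5 to 40.6 CPM. The levels thus ran in the order POU2AF1 knockdown, POU2F2 knockdown, control, except that POU2F2 knockdown replicate 3 (34.1 CPM) lay among the controls. The knockdowns did not overlap (1.62 ± 0.268 within series, edgeR adjusted p = 0.036). LOXL2, a lysyl oxidase, showed this order in all libraries, at 19.0 to 28.9 CPM in POU2F2 knockdown, 4.66 to 11.9 CPM in POU2AF1 knockdown and 30.5 to 40.4 CPM in the controls. Its log2 difference within series was 1.33 (edgeR adjusted p = 0.014).

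KCNN3, a calcium-activated potassium channel with the octamer at 2 positions in a window inside the gene, was at 28.5 to 69.7 CPM in POU2F2 knockdown. Values in POU2AF1 knockdown were 15.6 and 30.7 CPM in batch 2 and 8.63 to 10.2 CPM in batch 1, and control libraries had 67.1 to 86.2 CPM. The groups overlapped over all libraries but not within a series, with 34.8, 33.4 and 38.8 CPM against 15.6 CPM in s0 and 61.4 and 63.6 CPM against 30.7 CPM in s2, POU2F2 knockdown first in each. The log2 difference within series was 1.11 ± 0.1 (edgeR adjusted p = 0.0011). TP53INP2, an autophagy regulator with an octamer in 1 of its windows, was at 7.40 to 16.3 CPM in POU2F2 knockdown and at 4.49 to 7.89 CPM in POU2AF1 knockdown, with a log2 difference within series of 0.93 (edgeR adjusted p = 0.012). COL5A1, a collagen chain, differed by more between series than between knockdowns. It was at 5.67, 5.44 and 5.36 CPM in POU2F2 knockdown against 1.53 CPM in POU2AF1 knockdown in s0, and at 60.8 and 58.9 CPM against 28.2 CPM in s2 (1.37 within series, edgeR adjusted p = 0.012).

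Further genes called higher within series were RNGTT, the mRNA capping enzyme (0.79), PDZRN4 (0.99), DEPTOR, an inhibitor of mTOR (0.82), COBLL1 (1.11), ANK1, an ankyrin (0.84), EAF2, a partner of the elongation factor ELL (0.81), DRAM2 (0.53), USP30, a mitochondrial deubiquitinase (0.52), the gluconeogenic enzyme FBP1 (1.05) and the unnamed gene ENSG00000271046 (0.88). Of these, RNGTT, COBLL1, ANK1, DRAM2, USP30 and FBP1 did not overlap between the knockdowns over all 14 libraries.

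The genes lower in POU2F2 than in POU2AF1 knockdown were fewer. ETV6, an ETS family repressor, was the 1 member called among 26 B lineage transcription factors, where 0.0596% of all genes were called lower. Without POU2AF1 knockdown replicate 1 the list had 5 lower and none higher, against 1.65% and 1.57% of all genes. ETV6 and CHD1 are also in a list that the earlier analysis chose on these libraries as higher after POU2AF1 knockdown. ETV6 was at 37.6 to 78.7 CPM in POU2F2 knockdown, with a median of 56.9 CPM, at 88.6 and 104 CPM in batch 2 and 97.9 to 107 CPM in batch 1 of POU2AF1 knockdown, and at 30.3 to 56.9 CPM in the controls. The knockdowns did not overlap (-0.69 ± 0.0874 within series, edgeR adjusted p = 0.012). SCAMP5, a secretory carrier membrane protein, was at 50.5 to 78.8 CPM in POU2F2 knockdown, with a median of 71.7 CPM. POU2AF1 knockdown libraries stood at 121 and 106 CPM in batch 2 and at 87.3 to 106 CPM in batch 1, with controls at 53.7 to 73.7 CPM. Its log2 difference within series was -0.63 ± 0.101 (edgeR adjusted p = 0.030).

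CHD1, a chromatin remodeller, was at 8.19 to 18.6 CPM in POU2F2 knockdown. In POU2AF1 knockdown it was at 25.8 and 15.8 CPM in batch 2 and at 25.7 to 32.1 CPM in batch 1, and in the controls at 6.77 to 8.04 CPM. Its log2 difference within series was -1.11 (edgeR adjusted p = 0.012). NR1D2, a nuclear receptor of the circadian clock (-0.56), PUS7, a pseudouridine synthase (-0.61), BMP7 (-0.67) and the unnamed gene ENSG00000262488 (-1.36) were also lower in POU2F2 knockdown within series.

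PRSS2, a trypsinogen, had the lowest log2 difference of the called genes, -1.92 ± 0.219 within series (edgeR adjusted p = 0.0063), at low levels. It was at 0.808 to 2.91 CPM in POU2F2 knockdown, at 10.6 and 3.22 CPM in batch 2 and 7.30 to 8.88 CPM in batch 1 of POU2AF1 knockdown, and at 0.488 to 1.23 CPM in the controls. Trypsinogen genes have near-identical copies, so the assignment of its reads is uncertain. PRSS2 lies on chromosome 7 at 142760398 to 142774564, beside TRBC2, a T cell receptor constant gene at 142801041 to 142802748. TRBC2 was at 98.6 to 147 CPM in POU2F2 knockdown and at 157 to 217 CPM in POU2AF1 knockdown, without overlap. It was not called within series (-0.45, edgeR adjusted p = 0.11), and was called without POU2AF1 knockdown replicate 1. That fit also called TRAC, the alpha chain gene, in the opposite direction, at 10.0 to 57.1 CPM in POU2F2 knockdown and 16.2 to 36.1 CPM in POU2AF1 knockdown.

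By p with batch as a term the rule for named genes also picked UCK2, B4GALT5, IRF2BP2, MPZL1, NOTCH2 and CMTM7 on the lower side, and none of them was called with batch as a term or within series. Their log2 differences with batch as a term were -0.39 to -0.59. NOTCH2, a receptor of marginal zone B cells, was at 141 to 209 CPM in POU2F2 knockdown, at 266 and 251 CPM in batch 2 and 180 to 235 CPM in batch 1 of POU2AF1 knockdown, and at 127 to 170 CPM in the controls. MYC, the growth regulator, was at 235 to 407 CPM in POU2F2 knockdown, with a median of 288 CPM, at 410 and 412 CPM in batch 2 and 407 to 516 CPM in batch 1 of POU2AF1 knockdown, and at 244 to 313 CPM in the controls. It missed the threshold within series (-0.59 ± 0.113, edgeR adjusted p = 0.072) and passed without POU2AF1 knockdown replicate 1 (adjusted p = 0.0042).

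The controls place each knockdown relative to cells whose guides had no target. Within s0 and s2 each knockdown was set against the control library of its series, 1 each, which took no part in the calls. Leaving out both targets, POU2AF1 knockdown was further from control than POU2F2 knockdown for 35 of 35 called genes, against 59.7% of all genes tested. All 27 genes higher in POU2F2 than in POU2AF1 knockdown were below control in POU2AF1 knockdown, with a median log2 difference from control of -0.11 in POU2F2 knockdown and -1.06 in POU2AF1 knockdown. All 8 lower genes were above control in POU2AF1 knockdown, with medians of 0.31 in POU2F2 knockdown and 1.05 in POU2AF1 knockdown. POU2F2 knockdown lay between control and POU2AF1 knockdown for 21 of the 35 and past control, on the other side from POU2AF1 knockdown, for 14. These values use the libraries on which the genes were called, and POU2AF1 knockdown has 1 library in each series. The depth of repression differed too. Against the same controls POU2AF1 was at -2.39 in POU2AF1 knockdown and POU2F2 at -1.68 in POU2F2 knockdown. Whether this bears on the distances from control was not tested.

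Batch 1 offers libraries that the fitted difference did not use. They are set here beside POU2F2 knockdown replicate 3, which is labelled batch 2 but resembled the batch 1 control. The mean of the 4 batch 1 POU2AF1 knockdown libraries lay on the same side of the batch 1 control as their batch 2 counterparts did of theirs for 33 of the 35 genes (94.3%), against 62.6% of all genes tested. It was further from that control than POU2F2 knockdown replicate 3 was for 32 of 35 (91.4%), against 68.8% of all genes tested. For the 27 genes higher in POU2F2 knockdown the median log2 difference from the batch 1 control was -0.11 in POU2F2 knockdown replicate 3 and -1.38 in POU2AF1 knockdown. For the 8 lower genes it was 0.07 in POU2F2 knockdown replicate 3 and 1.35 in POU2AF1 knockdown. The lone batch 1 control is shared by these values. Repression was unequal here as well. POU2AF1 was at 28.4 to 43.8 CPM in the batch 1 POU2AF1 knockdown libraries, against 458 CPM in that control. POU2F2 was at 152 CPM in POU2F2 knockdown replicate 3, against 419 CPM in that control.

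**Figure D4:**
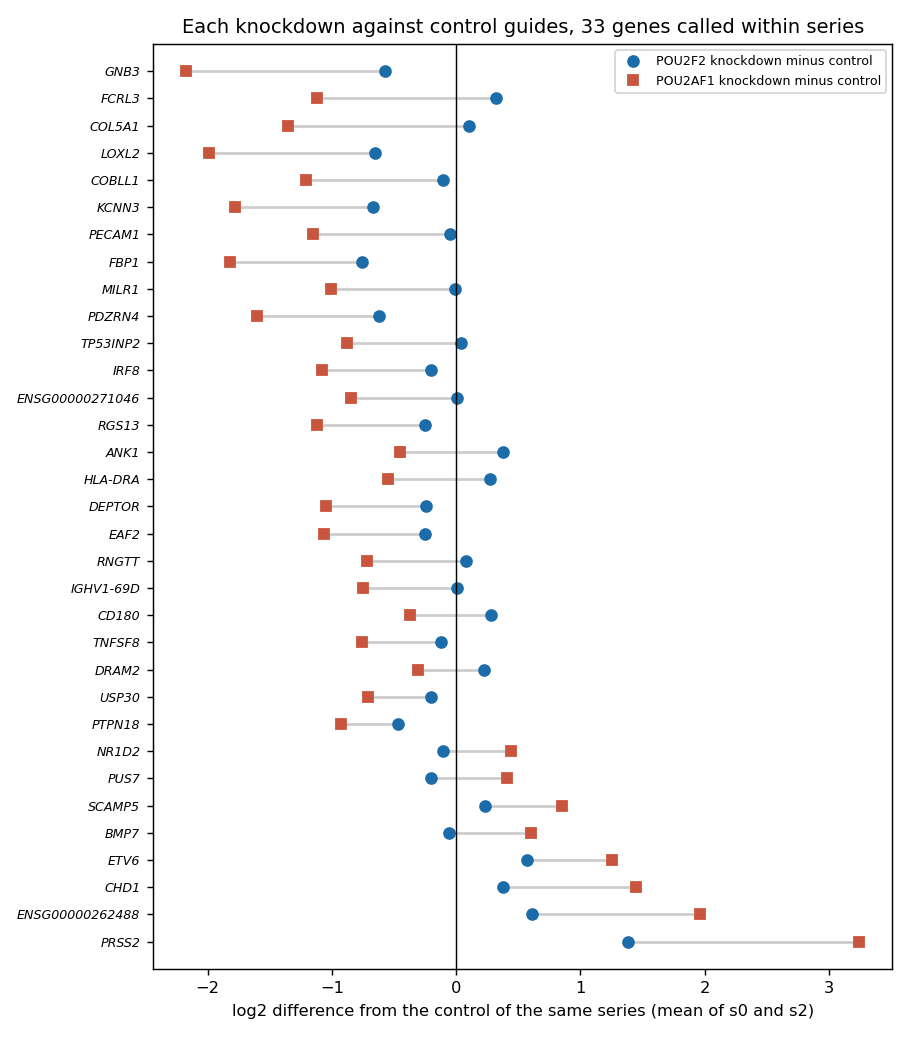
Log2 difference from the control library of the same series, averaged over s0 and s2, for POU2F2 knockdown (blue circles) and POU2AF1 knockdown (red squares), for 33 of the genes called within series, the targets and ZBTB3 not among them. Squares lie further from 0 than circles for every gene shown, from 3.24 for PRSS2 to -2.17 for GNB3. Circles lie near 0 for MILR1 (-0.01), PECAM1 (-0.05) and TP53INP2 (0.04) and part of the way for GNB3 (-0.57), LOXL2 (-0.65) and ETV6 (0.57).

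After POU2F2 knockdown some genes lay near control, some past it and some part of the way to POU2AF1 knockdown. MILR1 was at -0.01 in POU2F2 knockdown and -1.01 in POU2AF1 knockdown on the log2 scale against control, PECAM1 at -0.05 and -1.15, and IRF8 at -0.20 and -1.08, in the same order. FCRL3 was above control in POU2F2 knockdown, at 0.32, and at -1.12 in POU2AF1 knockdown, and CD180 was at 0.28 and -0.37, HLA-DRA at 0.27 and -0.55 and ANK1 at 0.38 and -0.45. KCNN3 was at -0.67 in POU2F2 knockdown and -1.78 in POU2AF1 knockdown, FBP1 at -0.76 and -1.82, PDZRN4 at -0.62 and -1.60, and PTPN18 at -0.47 and -0.93. On the other side CHD1 was at 0.38 in POU2F2 knockdown and 1.45 in POU2AF1 knockdown, and ETV6 at 0.57 and 1.25. These positions are descriptions, and no test compares a gene in either knockdown with control here.

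For most other gene lists no member was called within series. This was the case for 35 genes of B cell receptor signalling (median 0.06 within series), 18 of plasma cell differentiation (0.07), 17 of naive and memory B cells (0.01), 19 of the CD40 and NF-kB response (0.10), 20 of the type I interferon response (-0.02), 4 of the SP100 family (-0.13), 15 of the BCL2 family and apoptosis (0.05), 17 of the ATF4 and amino acid response (0.05) and 23 of endoplasmic reticulum folding (0.02). All genes together had a median of -0.02 within series. The migration and adhesion list of 22 shares its 1 call, RGS13, with the germinal centre list, at a median of 0.04. Without POU2AF1 knockdown replicate 1, where 1.57% of all genes were called higher and 1.65% lower, the migration list had 3 higher and 3 lower, the BCL2 family list 3 lower, the CD40 and NF-kB and the plasma cell lists 2 higher each, the interferon list 1 higher and 1 lower, the ATF4 and the endoplasmic reticulum lists 1 higher each, and the SP100 family none. CD22, an inhibitory coreceptor of the B cell receptor, was at 685 to 800 CPM in POU2F2 knockdown, at 533 and 581 CPM in batch 2 and 319 to 354 CPM in batch 1 of POU2AF1 knockdown, and at 702 to 777 CPM in the controls. It missed the threshold within series (0.41 ± 0.0811, edgeR adjusted p = 0.083) and passed without POU2AF1 knockdown replicate 1 (adjusted p = 0.0058), where the list had 4 higher and none lower.

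Among 17 naive and memory genes 3 were higher and 3 lower without POU2AF1 knockdown replicate 1, against 1.57% and 1.65% of all genes. CD1C, which presents lipid antigens, was at 6.19 to 34.6 CPM in POU2F2 knockdown and at 1.89 to 11.5 CPM in POU2AF1 knockdown (1.38 within series). S1PR1, a sphingosine phosphate receptor that lets lymphocytes leave lymphoid organs, was at 0.271 to 1.91 CPM in POU2F2 knockdown and at 1.81 to 6.80 CPM in POU2AF1 knockdown (-1.37 within series). CCR7, a chemokine receptor, was at 0.789 to 4.49 CPM in POU2F2 knockdown and at 3.19 to 8.21 CPM in POU2AF1 knockdown (-1.16 within series). The groups overlapped for all of these, and none was called within series.

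Among lists of proliferation and metabolism no member was called within series. This applied to 25 genes of DNA replication and S phase (median -0.01), 22 of G2 and mitosis (0.07), 12 G1 regulators and cell cycle inhibitors (0.02), 27 cytoplasmic ribosomal proteins (-0.04), 25 of the nuclear encoded respiratory chain (-0.05), 13 mitochondrially encoded genes (0.03), 25 of glycolysis and hypoxia (0.00) and 23 of sterol and fatty acid synthesis (0.04). Without POU2AF1 knockdown replicate 1 the last 2 lists had 1 lower each, and the others none. MKI67, a marker of cycling cells, averaged 1160 ± 190 CPM in POU2F2 knockdown and 1030 ± 157 CPM in POU2AF1 knockdown (SD, n = 8 and 6), with a log2 difference of 0.01 within series. The MYC and ribosome biogenesis list of 21 had a median of -0.26 within series, with no call. Without POU2AF1 knockdown replicate 1 it had 3 lower and none higher, against 1.65% and 1.57% of all genes.

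For some lists the value depended on how batch was taken into account. Immediate early genes, the fast transcriptional response to signals, had 19 of 19 values above 0 and a median of 0.62 with batch as a term, but a median of 0.16 within series, and no call in either fit. Replication-dependent histones, 14 tested, had medians of 0.54 with batch as a term and 0.29 within series, also with no call. Single libraries stood out for some members. In POU2F2 knockdown JUND and IER2 were highest in replicate 3, at 109 and 132 CPM, where the group medians were 25.2 and 43.4 CPM. The histone gene H2BC21 was at 29.4 CPM in POU2F2 knockdown replicate 1, where the group median was 1.98 CPM. Their part in the list medians was not tested. In the lists that an earlier analysis chose on these libraries for their response to POU2AF1 knockdown, 5 of 9 genes chosen as lower were called higher in POU2F2 knockdown within series, and 2 of 10 chosen as higher were called lower. Those choices were made on libraries used here, so their direction is not independent evidence.

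**Figure D5:**
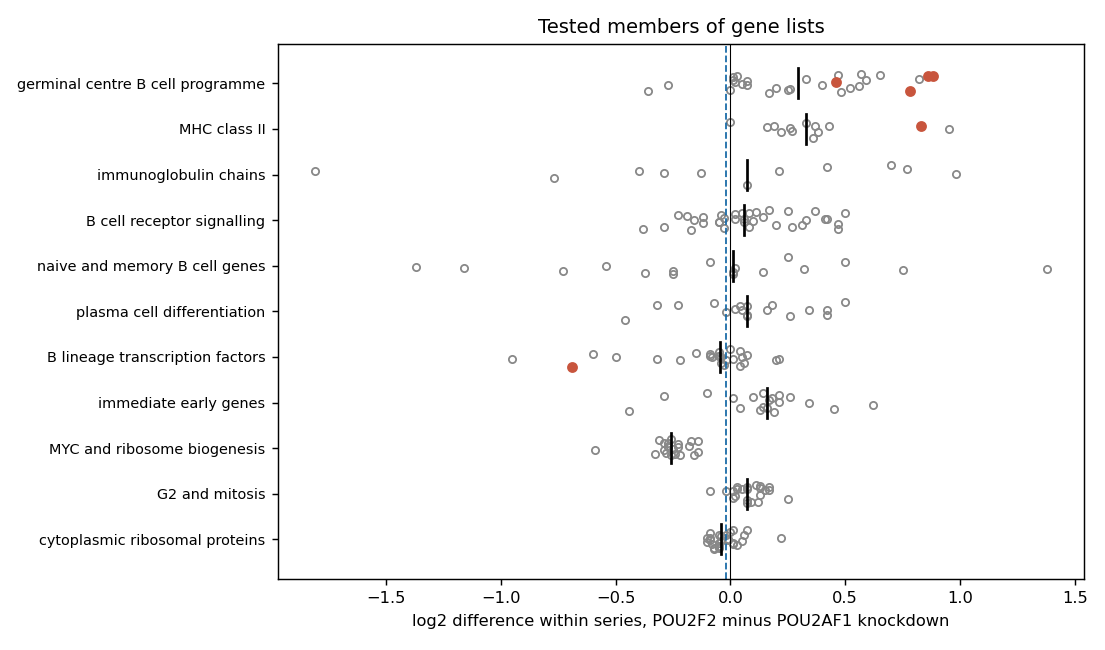
Log2 difference within series, POU2F2 minus POU2AF1 knockdown, of the tested members of 11 gene lists. Open circles were not called, red circles were called, black ticks are list medians, and the dashed blue line is the median of all genes (-0.02). The called members are 4 germinal centre genes, HLA-DRA and ETV6, and the germinal centre and MHC class II medians lie at 0.29 and 0.33.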

How the data were processed

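Per the submitters' processing notes, the authors used fastp, Salmon 1.5.1 and the build GRCh38.p13. The fastp version is not stated. The deposited estimated counts (expected counts per transcript, 227912 transcripts) were summed per gene after matching 205964 identifiers, without version, to GENCODE 29, and rounded. The matched transcripts held 98.4% to 98.9% of the reads of each file. Transcripts with shared sequence have estimated, not observed, counts, and 70 tested genes differed by more than 5 counting standard deviations between repeated control files.

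The first and second control file agreed nearly within sampling noise (ratio 1.13, against 2.53 or more among the 14 knockdown files), and the third equalled their sum within 2 reads for 92.9% of 26871 genes, so they were counted as 1 library.

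Levels are TMM-normalised CPM. Knockdowns were compared with edgeR 4.0.16 in R 4.3.3 (TMM over 18 libraries, filterByExpr at its minimum count of 10, quasi-likelihood fit with the robust option, Benjamini-Hochberg adjustment over all genes, threshold 0.05), with batch as a term and, within series, with the series mark in its place. Log2 differences for s0, s2, 48 h and control positions use log2 CPM with a prior count of 2. DESeq2 1.42.0 was an alternative. The fits were tested on simulated data.

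The rule for named genes took POU2F2, POU2AF1 and, in each direction, up to 15 called genes with a symbol, at least 5 CPM in either knockdown, no overlap in batch 2 and the same sign within series, filled to 10 by smallest p, variable immunoglobulin segments left out, and for each of 31 gene lists its called or most abundant members. The members and lists were chosen with earlier results of these data known. SUDHL4 files were not used here. A called gene is counted but not reported here.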

Additional observations from a re-analysis of the deposited data

Results flagged for a closer look

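In 19 of 138 groups of values examined, 1 library lay apart from the rest of its group by Dixon's criterion, where chance alone gives about 1 in 20. That rate holds for groups of like libraries. The groups here mix batches and series, and many of the genes were chosen after their values were seen. The number flagged therefore cannot be judged against that rate. POU2AF1 knockdown replicate 6, of series s2, was high for VPREB3 (114 CPM, others 48.2 to 64.0), TNFSF8 (25.2 CPM, others 16.1 to 18.2) and COL5A1 (28.2 CPM, others 1.53 to 2.72). It was low for PRSS2 (3.22 CPM, others 7.30 to 10.6), B4GALT5 (60.4 CPM, others 68.9 to 74.6) and CHD1 (15.8 CPM, others 25.7 to 32.1). POU2AF1 knockdown replicate 5 was high for TP53INP2 (7.89 CPM, others 4.49 to 5.17) and low for DRAM2 (38.6 CPM, others 46.4 to 51.2).

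POU2AF1 knockdown replicate 1 was low for IRF8 (53.6 CPM, others 78.7 to 85.4) and BCL6 (62.4 CPM, others 116 to 138), and its share of mitochondrial reads was 25.8%. POU2F2 knockdown replicate 3, the 48 h library, was low for MPZL1 (57.5 CPM, others 67.4 to 72.2), CMTM7 (12.8 CPM, others 17.1 to 22.2) and TNFSF8 (22 CPM, others 29.8 to 37.9) and high for CD24 (469 CPM, others 289 to 321). POU2F2 knockdown replicate 1 was low for DEPTOR (58.5 CPM, others 82.2 to 98.2) and TRAC (10.0 CPM, others 27.1 to 57.1) and high for HLA-DPB1 (141 CPM, others 81.4 to 105). POU2F2 knockdown replicate 8 had 13.4% mitochondrial reads, against 8.21% to 10.3% in the others of its group.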

How the results depend on the processing

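Of 1913 values for 66 genes besides the targets under the alternatives run, 1569 kept their direction and side of the threshold, 321 newly passed, 18 no longer passed and 5 changed sign. Many of these genes were picked as called within series or after their values were seen. Their passing in the within-series fits was thus in part fixed by that choice. Besides the targets only FCRL3 and ZBTB3 were called with batch as a term, so keeping the side mostly meant staying uncalled. The sign changed for COL5A1 with the replicate block (-0.43), for POU2F1 without a batch term (-0.03), with the replicate block (-0.09) and without POU2AF1 knockdown replicate 5 (-0.06, in a leave-one-out range of -0.06 to 0.35), and for S1PR2 without a batch term (-0.28), and the cause was not tested. The count of 3 genes, all higher, became 44 with DESeq2 (36 higher, 8 lower), 26 with controls added (22 and 4), 37 within series (28 and 9), 192 within series with controls (134 and 58), 255 without a batch term (162 and 93), 57 with POU2F2 knockdown replicate 3 in batch 1 (45 and 12), and, chosen after seeing the data, 491 within series without POU2AF1 knockdown replicate 1 (239 and 252) and 294 within series with POU2F2 knockdown replicate 3 in the block of batch 1 (191 and 103). Without a filter on low counts 4 were called, of which 1 was lower. Leaving out each replicate gave 1 to 7 genes, 1 to 7 higher and 0 to 1 lower, and within series 3 to 491.

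The log2 difference of POU2F2 passed the threshold with DESeq2 (-1.44), with controls added (-1.38), within series (-1.55), within series with controls (-1.50), without a batch term (-1.87), with POU2F2 knockdown replicate 3 in batch 1 (-1.46), within series without POU2AF1 knockdown replicate 1 (-1.55) and within series with POU2F2 knockdown replicate 3 in the block of batch 1 (-1.40). Leaving out a replicate gave -1.63 to -1.38. With replicate numbers 1 to 6 as a block (replicate block) 2 genes were called, and the log2 differences were -1.67 for POU2F2 and 2.53 for POU2AF1. Same-numbered libraries deviated with correlations of -0.65 to 0.61, and of the 6 numbers only replicate 5 correlated best with its own number. POU2AF1 knockdown replicates 5 and 6 were centred on their shared mean, so their deviations mirror each other. POU2AF1 knockdown replicate 5 also shares series s0 with POU2F2 knockdown replicates 4, 5 and 6. For numbers 5 and 6 the check therefore cannot decide whether numbers pair libraries. For numbers 1 to 4 the correlations were -0.20 to 0.32, and the best match was POU2AF1 knockdown replicate 5 or 6. Those 2 differ in series, so the check cannot decide for numbers 1 to 4 either. FCRL3 and ZBTB3 lost the call under some alternatives. FCRL3 lost it at 1.37 with the replicate block and at 1.38 with batch 2 only or no filter. It also lost it, at 1.35 to 1.40, without any 1 of POU2F2 knockdown replicates 2, 4, 5, 6 and 7 and POU2AF1 knockdown replicates 3, 4, 5 and 6. ZBTB3 lost it at 1.03 to 3.64 where controls were added, no batch term was used or POU2F2 knockdown replicate 3 was placed in batch 1. It also lost it at 4.87 without POU2AF1 knockdown replicate 5. The number of POU2AF1 knockdown libraries in batch 2 bears on the error of the difference: the standard error for POU2F2 was 0.308, and 0.411 without either of them.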
